A study of Mus musculus with 4 samples.

Results

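Mitosis and spindle genes were examined in induced regulatory T (iTreg) cells cultured with or without added iron. The set held 35 mouse genes that act in the G2 and M phases of the cell cycle, given as a list of symbols. Each symbol matched 1 Ensembl gene ID of the 47729 in the count table. All 35 passed the filter on low counts, which kept 13732 genes for testing. CD4 T cells from the spleen of C57BL/6 mice were driven towards the regulatory fate in all 4 cultures. Every culture contained TGF-β at 5 ng/mL and IL-2 at 100 U/mL, with antibodies at 5 µg/mL that block IFN-γ and IL-4. Per the study's methods, the starting cells were naive CD4 T cells activated through CD3 and CD28. FeSO4 cultures (2 libraries) received ferrous sulfate at 50 µM for 4 days, and Mock cultures (2 libraries) received PBS for the same time. Cells of both groups were wild type per the methods. The methods speak of pairs of samples from independent experiments, but the labels do not say which libraries form a pair.

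Entry into mitosis is driven by cyclin B bound to the kinase Cdk1. Aurora and Polo-like kinases then build the spindle, the kinetochore couples chromosomes to its microtubules, and the spindle checkpoint delays anaphase until every chromosome is attached. The anaphase-promoting complex (APC/C) ends mitosis by marking cyclin B and other proteins for destruction, and the midzone and a contractile ring divide the cell. Transcripts of these genes accumulate in G2 and M, so their summed level is commonly used as a readout of cycling cells, including activated T cells. In bulk libraries, a larger share of cells in G2 and M and more RNA per such cell cannot be told apart.

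Libraries held 35183187 to 40859178 reads in gene rows, and the members had 1762 to 59633 reads each in a library. Levels are given as CPM, the count of a gene scaled for depth, here with library sizes adjusted by the TMM method. Changes are log2 fold changes of FeSO4 against Mock with their standard error (SE) from edgeR's quasi-likelihood test, and p-values were adjusted by the Benjamini-Hochberg method over all 13732 genes. With 2 libraries per group, the spread of a gene borrows from all other genes. The T cell markers Cd4, Cd3e, Cd3g, Foxp3, Il2ra and Ctla4 had at least 4739 reads in every library. Foxp3, the factor that defines regulatory T cells, was at 587 and 693 CPM in Mock and at 376 and 472 CPM in FeSO4, and fell (-0.59 ± 0.091, adjusted p = 0.000223). Cd3g, a chain of the T cell receptor complex, rose (0.50 ± 0.060, adjusted p = 2.04e-05), and the other 4 were not called. Of the B cell markers, Ms4a1 and Pax5 had at most 1 read in a library, Cd79a had 69 to 107 and Cd79b 12 to 29. No read fell on Ncr1 or Klrb1c of NK cells, whereas Klrc1 had 12 and 25 reads in the Mock libraries against 34 and 35 in the FeSO4 libraries, and was not called (adjusted p = 0.147).

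Mitosis and spindle genes were slightly higher in FeSO4. Of the 35 genes, 15 were higher and 0 were lower at an adjusted p under 0.05, and 20 were not called. Among all genes tested, 10.9% were higher and 9.17% were lower. The median log2 fold change of the set was 0.19, against -0.00052 over all genes tested. The fitted change was above 0 in all 35 genes, from 0.010 (Spag5) to 0.39 (Ccnb1), so none was lower at an unadjusted p under 0.05 either. DESeq2 and limma-voom also called 0 lower, and called 13 and 15 higher, with 9.63% and 10.6% of all genes higher. At an adjusted p under 0.01 in edgeR, 3 members were higher, beside 5.75% of all genes. Genes as abundant as the members (4484 genes between 48.8 and 1474 CPM) had a median of 0.027, and 849 of them (18.9%) were higher. No test of the set against these genes was made. The counts by role that follow are small and are to be read against the same 10.9% and 18.9%.

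The changes were small in size. None of the 35 genes met the study's threshold (unadjusted p under 0.05 with a log2 fold change of 0.5 or more in size), which 10.4% of all genes did. Of the 4484 genes as abundant as the members, 156 met it. DESeq2 and limma-voom also gave 0. An unadjusted p under 0.05 was reached by 23 of the 35, so the size of the change and not the p kept them below it. Summed over the 35 genes, Mock libraries reached 8221 and 8072 CPM and FeSO4 libraries 9196 and 9027 CPM, a ratio of the means of 1.12. As a share of all gene reads before any scaling, the set took 0.839% (95% Wilson interval 0.836 to 0.842) and 0.826% (0.823 to 0.829) in Mock. In FeSO4 it took 0.895% (0.892 to 0.899) and 0.886% (0.883 to 0.889). The intervals cover counting error only.

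**Figure D1:**
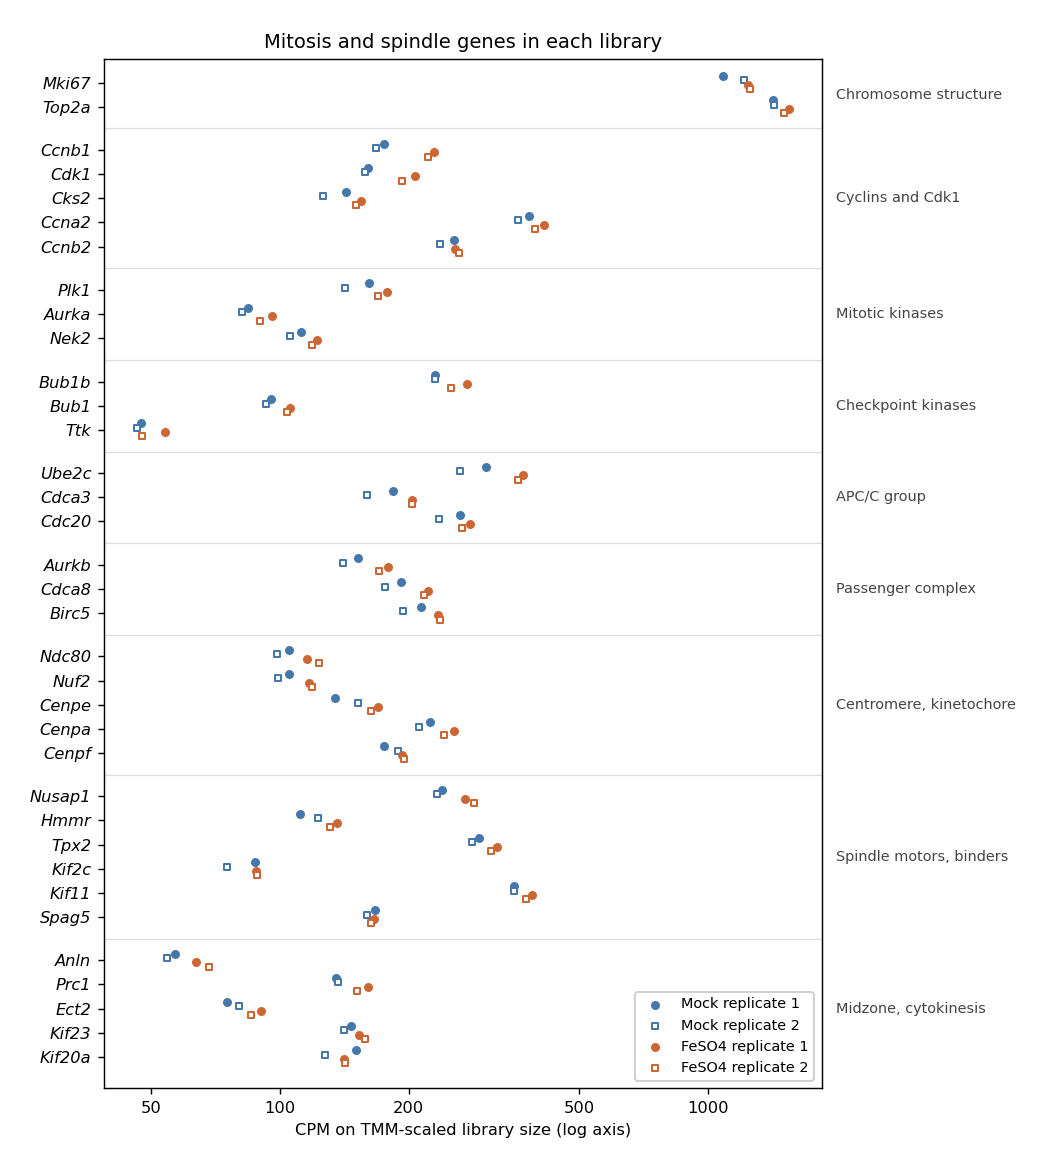
Level of each of the 35 genes in each library, in CPM on a log axis, grouped by role. Points are single libraries (Mock blue, FeSO4 orange, replicate 1 filled, replicate 2 open), and in 33 genes both FeSO4 points lie to the right of both Mock points, with overlap in Kif20a and Spag5.

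Both FeSO4 libraries were above both Mock libraries in 33 of the 35 genes, an arrangement found in 30.1% of all genes tested. Of the 4484 genes as abundant as the members, 1756 had it. The groups overlapped in Kif20a and Spag5. When FeSO4 replicate 1 was set against Mock replicate 1 and FeSO4 replicate 2 against Mock replicate 2, 33 genes were again higher in both comparisons, against 36.5% of all genes. Among the 4484 genes of like abundance, 2040 were higher in both. The median log2 ratio was 0.15 in the first and 0.16 in the second comparison. Within a group, replicate 2 was lower than replicate 1 in most members. It was higher in 9 of 35 genes in Mock and in 12 of 35 in FeSO4, with median log2 differences of -0.062 and -0.040. Over all genes tested these medians were -0.0026 and -0.0021.

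Upstream sequence was looked at because the 15 called genes were all higher. Many genes of the G2 and M phases carry a cell cycle genes homology region (CHR) near their start site. The CHR is a short element bound by the MuvB complexes. Many such genes also carry CCAAT boxes, which the factor NF-Y binds, before the start site. RefSeq promoter windows of assembly GRCm38.p6 (250 bases before to 50 after the start site) were found for 31 of the 35 genes, as 33 windows because Ect2 and Prc1 have 2 start sites each. Aurkb, Ccna2, Kif20a and Tpx2 had no entry. The letters TTTGAA or TTTAAA were searched as the CHR and CCAAT as the CCAAT box, both on both strands. TTTAAA is its own reverse complement and was counted once, and CCAAT on the other strand reads ATTGG. Overlapping matches were each counted, such as neighbouring CCAAT matches in Ube2c. A match of these letters is a description and not a bound site.

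Printed here are the 150 bases before the start site for the 3 genes with the largest changes (Ccnb1, Ube2c and Cdk1), for Plk1, which was not called, and for Nusap1, which was called but has no match. They run 5′ to 3′ along the gene, with matches in capitals.
Ccnb1, chr13:100786487-100786636 (minus strand): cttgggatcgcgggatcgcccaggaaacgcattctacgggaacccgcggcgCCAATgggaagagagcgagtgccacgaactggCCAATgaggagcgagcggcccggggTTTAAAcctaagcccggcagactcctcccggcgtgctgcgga
Ube2c, chr2:164769779-164769928 (plus strand): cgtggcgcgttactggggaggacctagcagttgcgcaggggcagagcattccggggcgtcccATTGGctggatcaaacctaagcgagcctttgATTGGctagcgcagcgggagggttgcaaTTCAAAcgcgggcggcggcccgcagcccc
Cdk1, chr10:69352913-69353062 (minus strand): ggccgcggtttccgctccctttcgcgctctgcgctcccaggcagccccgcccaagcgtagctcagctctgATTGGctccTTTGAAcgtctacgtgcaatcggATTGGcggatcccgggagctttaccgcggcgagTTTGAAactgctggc
Plk1, chr7:122159285-122159434 (plus strand): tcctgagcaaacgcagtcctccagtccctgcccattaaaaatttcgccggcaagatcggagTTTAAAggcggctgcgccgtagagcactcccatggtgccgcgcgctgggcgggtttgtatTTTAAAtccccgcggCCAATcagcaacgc
Nusap1, chr2:119618148-119618297 (plus strand): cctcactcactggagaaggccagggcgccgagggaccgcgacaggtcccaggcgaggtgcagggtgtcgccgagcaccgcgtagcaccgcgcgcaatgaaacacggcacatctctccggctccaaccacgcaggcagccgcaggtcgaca

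Positions are counted from the start site, with -1 as the last base before it. In Ccnb1, CCAAT begins at -99 and at -67, and the CHR letters begin at -42. Cdk1 has the CHR letters at -71 and at -15, each preceded by CCAAT on the other strand (-80 and -48). Ube2c has the CHR letters at -29 on the other strand, after CCAAT on that strand at -88 and -57. In Plk1 the CHR letters begin at -89 and at -29, and CCAAT follows at -14.

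CHR letters were found in 26 of the 31 genes (83.9%), against 30.6% of all 27025 genes with a window and 8 of 28 genes (28.6%) of a comparison list of DNA replication genes. They began between -35 and 25 in 20 of 31 (64.5%), against 6.52% of all genes and 17.9% of the replication list. CCAAT letters were present in 25 of 31 (80.6%), against 41.1% and 67.9%. Both kinds were present in 22 of 31 (71.0%), against 12.2% and 21.4%. Member windows were richer in G and C than others (median 59.0% against 52.7% of bases), while those of the replication list had a median of 60.7%. Bub1, Cks2, Nek2, Nuf2 and Nusap1 had no CHR letters in their window, and Nuf2 and Nusap1 had no CCAAT letters either. Called and other members were set side by side, with no test. CHR letters were in 12 of 14 called genes with a window (85.7%) and in 14 of 17 genes not called (82.4%). CCAAT letters were in 9 of 14 (64.3%) and 16 of 17 (94.1%).

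**Figure D2:**
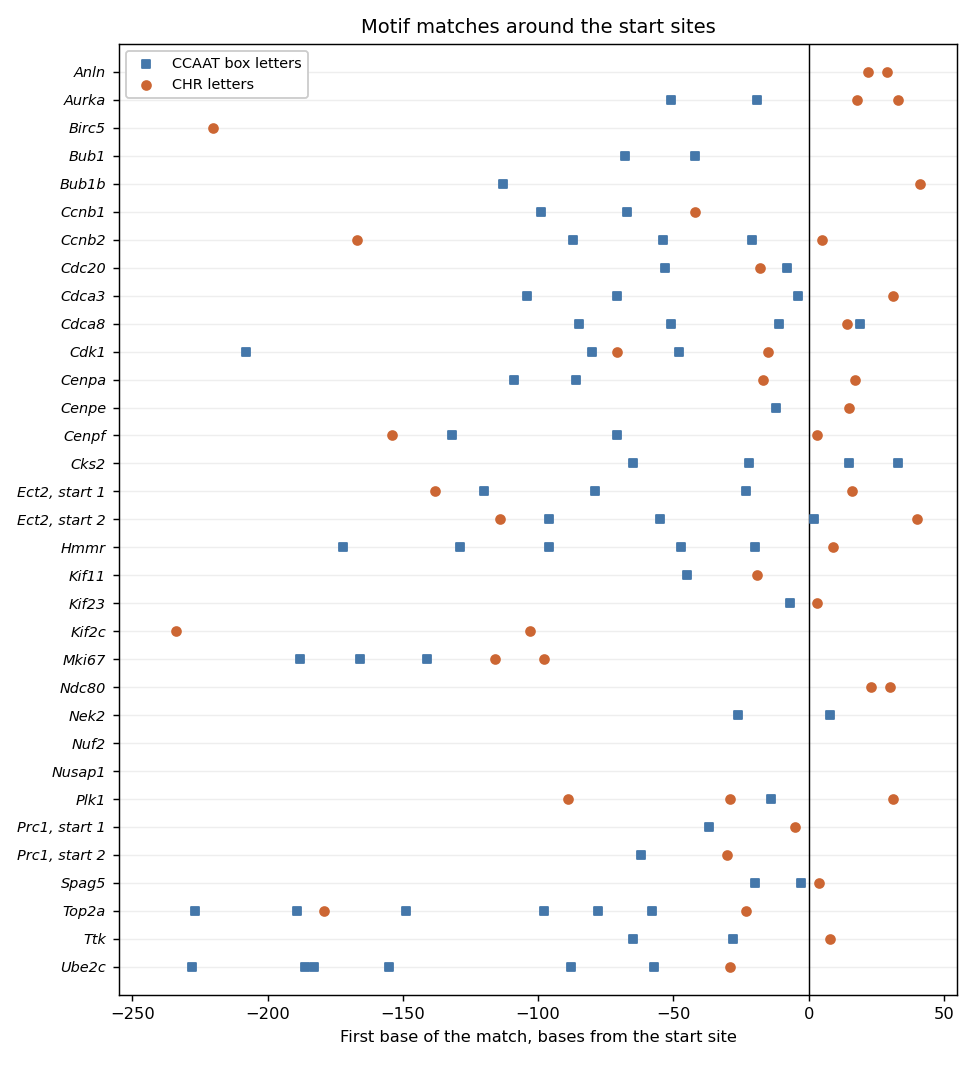
Position of CHR letters (orange circles) and CCAAT box letters (blue squares) in the 33 promoter windows of 31 genes, as the first base of each match relative to the start site at 0. CHR letters gather near the start site in 20 of 31 genes, while Nuf2 and Nusap1 have no match in the window.

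Cyclins and Cdk1 held the largest change of the members, in Ccnb1, and a much smaller change in Ccnb2. Ccnb1 (ENSMUSG00000041431), which encodes the cyclin B that activates Cdk1 for mitotic entry, was at 175 and 168 CPM in Mock and at 229 and 222 CPM in FeSO4. Both FeSO4 libraries were thus well above both Mock libraries. The fitted rise between the groups was 31.5% (log2 fold change 0.39 ± 0.063, SE, adjusted p = 0.000359). Cdk1 (ENSMUSG00000019942), the mitotic kinase itself, was at 161 and 158 CPM in Mock and at 207 and 193 CPM in FeSO4, again without overlap. Its log2 fold change was 0.33 ± 0.065 (adjusted p = 0.00189). Ccnb2, a second cyclin B, was at 255 and 237 CPM in Mock and at 257 and 263 CPM in FeSO4. The lower FeSO4 library exceeded the higher Mock library by little, and the fitted change was 0.077 ± 0.064 (adjusted p = 0.437). Ccna2, the cyclin A of S and G2 phase, and Cks2, a small subunit of Cdk complexes, had fitted changes of 0.12 and 0.19. Neither was called in the test without pairing of the libraries (adjusted p = 0.185 and 0.0791). Exons of Ccna2 share 512 bases with Exosc9 on the other strand. Per kilobase of exon, Ccnb2 (164 CPM per kb) was more abundant than Ccnb1 (47.1 CPM per kb), on exon lengths of GENCODE M1. Counts of Ccnb1 and Cks2 are uncertain, since their transcripts match 3 other places each in the mm9 genome at 95% identity or more, over up to 1813 bases for Ccnb1 and up to 580 for Cks2. Reads that aligned more than once are not in the gene counts.

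Plk1, Aurka and Nek2, kinases of the centrosomes and spindle poles, were not called in the test without pairing of the libraries. Plk1, the Polo-like kinase of centrosome maturation and mitotic entry, was at 161 and 142 CPM in Mock and at 178 and 169.6 CPM in FeSO4. The groups did not overlap, but Mock replicates differed by more than the gap between the groups, and the change of 0.20 ± 0.072 had an adjusted p of 0.0644. Aurka, the Aurora kinase of the spindle poles, and Nek2, which splits the centrosomes, had fitted changes of 0.16 ± 0.072 and 0.15 ± 0.069 (adjusted p = 0.137 and 0.151). Nek2 has 1 other matching place in the genome, over up to 633 bases.

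Among the checkpoint kinases, Bub1b was called and Bub1 and Ttk were not. The call of Bub1b was lost with the size factors of DESeq2, with upper quartile scaling and with library size only. Its smallest fitted change in any alternative was 0.12. Bub1b, which encodes BubR1, a part of the complex that inhibits the APC/C, rose by 0.19 ± 0.064 on the log2 scale (adjusted p = 0.0476), with the libraries at 230.0 and 231 CPM in Mock and at 274 and 251 CPM in FeSO4. Bub1, a kinase of the outer kinetochore, had a fitted change of 0.16 ± 0.069 (adjusted p = 0.125). Ttk, which encodes the checkpoint kinase Mps1, had the lowest CPM of the members, at 47.4 and 46.3 CPM in Mock and at 54.0 and 47.6 CPM in FeSO4. Its change was 0.11 ± 0.086 (adjusted p = 0.39).

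Of the 3 genes tied to the ubiquitin ligases of mitosis, Ube2c and Cdca3 rose. Ube2c (ENSMUSG00000001403), the conjugating enzyme that works with the APC/C, was at 304 and 264 CPM in Mock and at 370.4 and 359.8 CPM in FeSO4. FeSO4 libraries were close to each other and above both Mock libraries. The fitted rise between the groups was 28.7% (0.36 ± 0.069, adjusted p = 0.00143). Cdca3, a trigger of mitotic entry that works through a ubiquitin ligase, was at 184 and 159.5 CPM in Mock and at 204 CPM in both FeSO4 libraries (0.25 ± 0.072, adjusted p = 0.0234). Cdc20, the APC/C activator that the spindle checkpoint holds back, was at 263 and 235 CPM in Mock and at 278 and 267 CPM in FeSO4. The groups lay next to each other without overlap, and the change of 0.13 ± 0.067 was not called (adjusted p = 0.202). In the GENCODE M1 annotation, exons of Ube2c share 592 bases with Tnnc2 and those of Cdc20 share 53 with Elovl1, both on the other strand. Whether the counting used strand was not stated.

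The 3 members in the chromosomal passenger complex, which corrects faulty attachments and guides cytokinesis, rose, while its scaffold Incenp, from the list of other spindle genes, was not called. Aurkb, its kinase, was at 153 and 140.3 CPM in Mock and at 179 and 171 CPM in FeSO4 (0.26 ± 0.068, adjusted p = 0.013). Cdca8, which encodes the subunit borealin, was at 192 and 177 CPM in Mock and at 221 and 217 CPM in FeSO4 (0.25 ± 0.065, adjusted p = 0.0119). Birc5, which encodes survivin, was at 214 and 194 CPM in Mock and at 234 and 237 CPM in FeSO4 (0.21 ± 0.066, adjusted p = 0.036). In each of these genes the lowest FeSO4 library was above the highest Mock library, and Mock replicate 1 was above Mock replicate 2. All 3 calls were lost with library size only, and that of Birc5 also with upper quartile scaling. Incenp was at 297 and 276 CPM in Mock and at 321 and 315 CPM in FeSO4, without overlap (0.15 ± 0.062, adjusted p = 0.106). Exons of Cdca8 share 232 bases with 9930104L06Rik on the other strand.

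At the centromere and kinetochore, 4 of 5 genes rose, beside 10.9% of all genes and 18.9% of those of like abundance. All 4 calls were lost with library size only. Those of Cenpa, Cenpe and Nuf2 were also lost with upper quartile scaling, and that of Cenpe with DESeq2. Ndc80 and Nuf2 encode partners in the complex that grips microtubules, and they moved by nearly the same amount. Ndc80 was at 105 and 98.8 CPM in Mock and at 116 and 124 CPM in FeSO4 (0.23 ± 0.071, adjusted p = 0.0291). Nuf2 was at 105 and 98.9 CPM in Mock and at 117 and 119 CPM in FeSO4 (0.21 ± 0.069, adjusted p = 0.0368). Their levels were alike in Mock as well, and neither gene overlapped between the groups. Cenpa, the histone H3 variant that marks the centromere, was at 225 and 212 CPM in Mock and at 255 and 242 CPM in FeSO4 (0.19 ± 0.064, adjusted p = 0.0465). Cenpe, a kinesin that carries chromosomes to the spindle equator, was at 135 and 152 CPM in Mock and at 169.5 and 164 CPM in FeSO4 (0.21 ± 0.071, adjusted p = 0.0433). Unlike in the passenger complex, Mock replicate 2 was the higher Mock library for Cenpe. Cenpf, a large protein of the outer kinetochore, was not called, with a fitted change of 0.096 ± 0.065 (adjusted p = 0.329).

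Of 6 genes for spindle motors and other microtubule-binding proteins, Nusap1 alone was called in the test without pairing of the libraries (16.7%, beside 18.9% of genes of like abundance). Nusap1, which bundles spindle microtubules near the chromosomes, was at 239 and 233 CPM in Mock and at 271 and 285 CPM in FeSO4 (0.23 ± 0.062, adjusted p = 0.0134). Hmmr and Tpx2, which act in spindle assembly around the poles, had fitted changes of 0.19 and 0.14 (adjusted p = 0.0747 and 0.108). Kif11, the motor that pushes the poles apart, and Kif2c, a kinesin that takes microtubules apart at the centromere, had fitted changes of 0.12 each (adjusted p = 0.192 and 0.323). Spag5, which encodes astrin, changed least of all members, at 167 and 160.1 CPM in Mock and at 166 and 163 CPM in FeSO4. Its FeSO4 libraries lay between its Mock libraries (0.010 ± 0.064, adjusted p = 0.937). Exons of Nusap1 share 172 bases with those of Oip5 on the other strand.

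Among 5 genes of the midzone and cytokinesis, Prc1 and Anln rose. Both calls were lost with upper quartile scaling and with library size only, and that of Anln also with DESeq2. The smallest fitted changes in any alternative were 0.13 for Prc1 and 0.18 for Anln. Prc1, which cross-links the microtubules of the midzone, was at 135 and 137 CPM in Mock and at 161 and 151 CPM in FeSO4 (0.20 ± 0.066, adjusted p = 0.0439). Anln, which encodes anillin, a scaffold of the contractile ring, was at 57.1 and 54.7 CPM in Mock and at 63.7 and 68.2 CPM in FeSO4 (0.24 ± 0.079, adjusted p = 0.0399). Ect2, which sets off furrowing, and the midzone kinesin Kif23 had fitted changes of 0.18 and 0.11 and were not called (adjusted p = 0.101 and 0.265). Kif20a, a kinesin that brings the passenger complex to the midzone, was at 151 and 127 CPM in Mock and at 141 and 142 CPM in FeSO4. Mock replicates lay on either side of both FeSO4 libraries (0.024 ± 0.077, adjusted p = 0.872). Exons of Kif20a share 1259 bases with Cdc23 on the other strand.

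The members with the most reads, Mki67 and Top2a, were not called. Mki67, which encodes the proliferation antigen Ki-67, a coat of mitotic chromosomes, was at 1088 and 1212 CPM in Mock and at 1239 and 1256 CPM in FeSO4. Mock replicate 2 lay nearer to both FeSO4 libraries than to the other Mock library, and the change of 0.12 ± 0.063 was not called (adjusted p = 0.21). Top2a, the topoisomerase that untangles sister chromosomes, was at 1416 and 1426 CPM in Mock and at 1547 and 1505.5 CPM in FeSO4. Its groups were apart by more than their replicates, yet the change of 0.10 ± 0.057 had an adjusted p of 0.229. Exons of Top2a hold 122 bases of SNORA32.

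**Figure D3:**
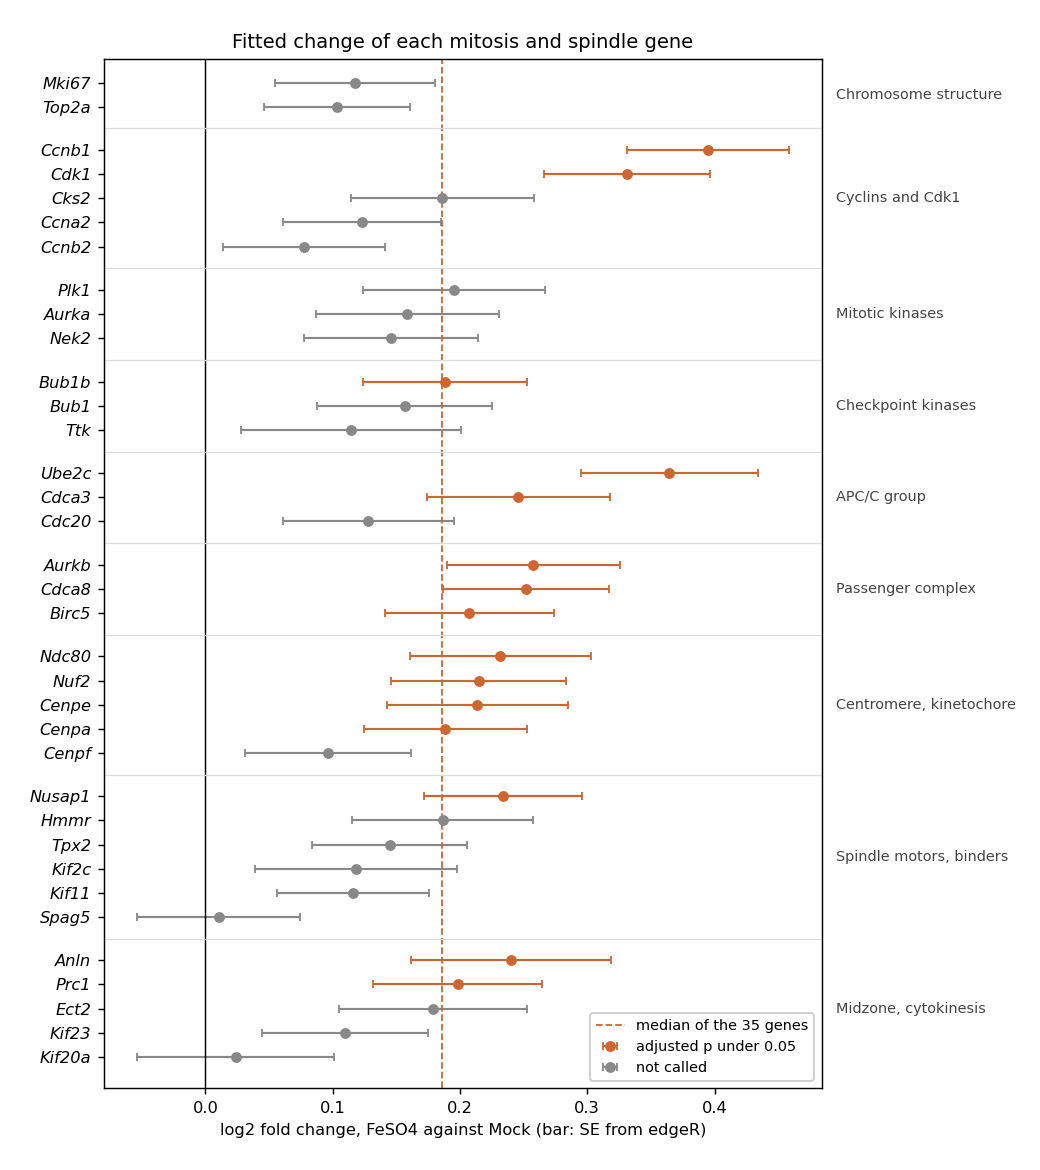
Fitted log2 fold change of FeSO4 against Mock for each of the 35 genes, with the SE from edgeR as bars, grouped by role. Orange genes had an adjusted p under 0.05 (15 genes), grey genes were not called (20 genes), the dashed line marks the median of 0.19, and Spag5 and Kif20a lie next to 0.

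The number of calls differed between fits that left out 1 library. Each such fit leaves 1 group with 1 library, which is assumed to vary like the libraries of the other group, and it has fewer libraries to estimate the spread from, so a call lost there does not show that it rests on the library left out. Without Mock replicate 1, 13 of the 35 genes were called, without Mock replicate 2 there were 7, without FeSO4 replicate 1 there were 5, and without FeSO4 replicate 2 there were 6. Calls fell over all genes as well, with 8.40%, 7.20%, 6.10% and 7.16% of all genes higher in these fits. Ccnb1, Cdk1 and Ube2c were called in all 4 of these fits, and Nusap1 in all but the fit without FeSO4 replicate 2. Aurkb and Cdca8 were lost without Mock replicate 2 and without FeSO4 replicate 1, and Ndc80 without Mock replicate 2 and without FeSO4 replicate 2. Cdca3, Birc5, Cenpa and Nuf2 were called only in the fit without Mock replicate 1, Cenpe only without Mock replicate 2 and Bub1b only without FeSO4 replicate 2. Prc1 and Anln were called in none of the 4. In turn, Plk1 and Cks2 were called without Mock replicate 1, and Mki67 and Hmmr without Mock replicate 2. Of the 35 genes, 33 had a fitted change above 0 in all 13 alternative fits, the exceptions being Spag5 and Kif20a. Scaling mattered too. With library size alone, 3 members (Ccnb1, Cdk1 and Ube2c) were called and the median was 0.12. In that fit the median of all genes moved to -0.066 and 7.14% of all genes were higher. With every gene of at least 1 count tested, 2 members (Ccnb1 and Cdk1) were called, and 2.36% of all genes were higher.

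**Figure D4:**
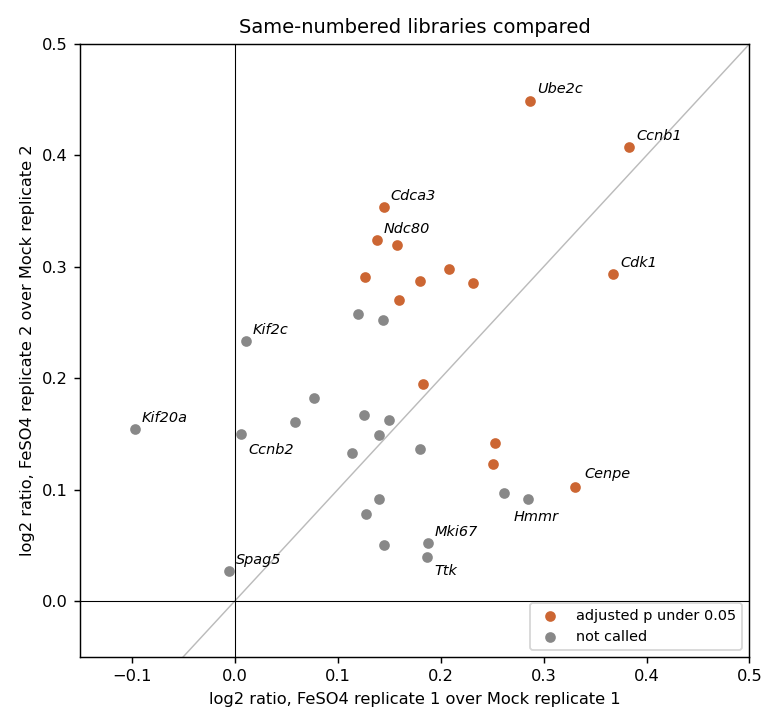
Log2 ratio of FeSO4 to Mock for each of the 35 genes in the libraries numbered 1 (horizontal) and in those numbered 2 (vertical), with called genes in orange, and the diagonal marking equal ratios. Of 35 genes, 33 lie above 0 on both axes, Kif20a and Spag5 are below 0 on the horizontal axis, and Ube2c, Ccnb1 and Cdk1 lie farthest out.

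Other genes of mitosis were taken from 5 lists that held none of the 35. Of these, 26 of 111 (23.4%) were higher in FeSO4 and 2 lower, and their median log2 fold change was 0.12. This share stands beside 10.9% of all genes and 18.9% of the genes as abundant as the members. The shares of the single lists are read against the same values, with no test. Among 19 regulators of mitotic entry and exit, 7 were higher and 0 were lower. Pbk, a mitotic kinase, rose by 0.36 ± 0.077 (adjusted p = 0.00312), and Plk4, which starts centriole duplication, by 0.33 ± 0.079 (adjusted p = 0.00696). Cks1b and Cdc25b, the latter a phosphatase that activates Cdk1, rose by 0.27 and 0.23 on the same scale. In the list of APC/C subunits and checkpoint proteins, 4 of 17 were higher and 0 lower, namely Mad2l1, Ube2s, Bub3 and Cdc27. Mad2l1, which encodes the checkpoint protein Mad2, was at 147 and 149.5 CPM in Mock and at 189 and 183 CPM in FeSO4 (0.33 ± 0.064, adjusted p = 0.00179).

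Among 28 other centromere and kinetochore genes, 6 were higher and 0 lower. The genes of smallest p were Zwint, a kinetochore protein, at 0.35 ± 0.066 (adjusted p = 0.0013), Cenpq at 0.44 ± 0.10, Ska1 at 0.36 ± 0.090 and Cenpw at 0.40 ± 0.11. Of 22 genes for cohesin, condensin and separase, 5 were higher and 0 lower. Pttg1, which encodes securin, the inhibitor of separase, rose by 0.44 ± 0.11 (adjusted p = 0.00856), and the condensin genes Ncapg, Ncapg2 and Smc4 rose by 0.27, 0.24 and 0.21.

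Both genes that fell were in the list of other kinesins and spindle genes, where 4 of 25 were higher. Psrc1, which encodes a spindle protein, was at 43.9 and 38.1 CPM in Mock and at 25.4 and 29.5 CPM in FeSO4 (-0.58 ± 0.10, adjusted p = 0.000932). Its FeSO4 libraries were below both Mock libraries, and it was the 1 gene of the 111 that met the study's threshold. Numa1, which anchors microtubules at the spindle poles and is a nuclear protein between divisions, was at 554 and 592 CPM in Mock and at 476 and 438 CPM in FeSO4 (-0.33 ± 0.064, adjusted p = 0.00177). Depdc1a rose by 0.45 ± 0.084 and Tacc3, a spindle protein, by 0.23 ± 0.067 in the same list.

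DNA replication genes act before mitosis, in S phase. Of 34 such genes, 16 (47.1%, beside the 10.9% of all genes) rose and 0 fell, with a median log2 fold change of 0.22. Gins1, Rfc3 and Slbp were among those of smallest p, with changes of 0.56 ± 0.12, 0.43 ± 0.090 and 0.29 ± 0.064. Summed over the list, Mock libraries reached 5802 and 5540.3 CPM and FeSO4 libraries 6544 and 6118 CPM, a ratio of 1.12, close to that of the mitosis and spindle genes. The difference between the lists was not tested.

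**Figure D5:**
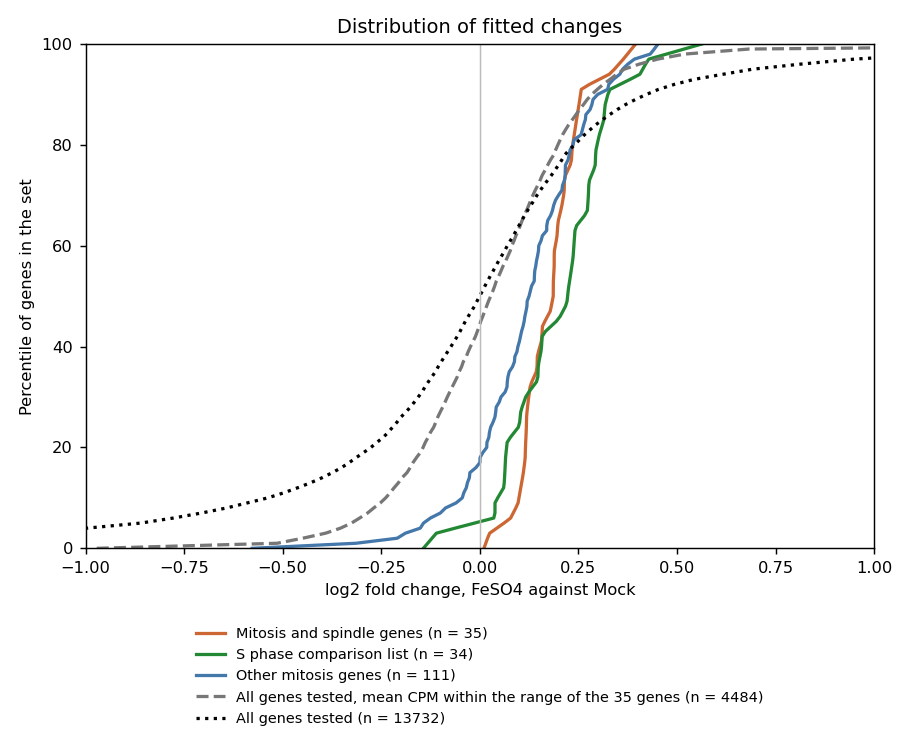
Percentiles (vertical axis) of the fitted log2 fold changes (horizontal axis) in the 35 mitosis and spindle genes, 34 S phase genes, 111 other mitosis genes, 4484 genes of like abundance and all 13732 genes tested. The curve of the 35 genes starts above 0 and rises steeply around its median of 0.19, while the curve of all genes crosses 0 at its middle.

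Markers of other cells were listed beside these results. Summed over 6 myeloid markers, Mock libraries were at 99.7 and 89.6 CPM and FeSO4 libraries at 117 and 119.9 CPM, nearly all of it Cst3, which rose (0.37 ± 0.070, adjusted p = 0.00148). The defining marker Csf1r had 7 reads in Mock replicate 1 and 0 in the other libraries. Lyz2 had 164 and 8 reads in Mock and 0 in both FeSO4 libraries, and did not pass the filter on low counts, nor did Itgam, with at most 2 reads. Cd68 and Adgre1 were not called (adjusted p = 0.767 and 0.719). The 4 erythroid markers summed to 25.5 and 20.9 CPM in Mock and to 39.7 and 34.4 CPM in FeSO4, carried by Hba-a1, which rose by more than any of the 35 genes (0.66 ± 0.12, adjusted p = 0.000731). Summed levels were 3.38 and 2.53 CPM (Mock) against 2.60 and 2.38 CPM (FeSO4) for 5 B cell markers, and 9.81 and 9.04 against 9.95 and 11.02 CPM for 2 CD8 T cell markers. Of these, Cd8a had 94 and 27 reads in Mock and 25 and 47 in FeSO4, and Cd8b1 304 and 351 in Mock and 316 and 361 in FeSO4, with fitted changes of -0.54 and 0.26 that were not called (adjusted p = 0.51 and 0.293). The 3 NK cell markers summed to 0.296 and 0.598 CPM in Mock and to 0.992 and 0.946 CPM in FeSO4, all of it Klrc1. The part of these cells in the mitosis and spindle genes was not tested.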

How the data were processed

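RNA-seq was made from 4 cultures of iTreg cells, 2 per group, and samples were grouped by their labels alone. The authors deposited a table of raw read counts, with a row for each Ensembl gene and a column for each library, not normalized. Per the study's methods, reads were aligned to mm9 with STAR and tested with DESeq, while the submitters' processing notes name mm10, Trim Galore 0.6.7, STAR 2.7.9a and featureCounts. The table does not settle which build the counts rest on, so no position was taken from it. It ends with 5 rows of reads without a gene (no feature 4.36 to 6.03% of a library, ambiguous 3.78 to 3.91%, low quality 0.802 to 0.988%, not aligned 1.80 to 2.31%, more than 1 alignment 4.27 to 4.62%), which were left out.

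Symbols came from GENCODE M1 (32799 of 47729 IDs). Counts were filtered with filterByExpr, scaled by TMM and tested in R 4.3.3 with edgeR 4.0.16 (glmQLFit, glmQLFTest, Benjamini-Hochberg over 13732 genes). SEs were taken from the F statistic, as the absolute log2 fold change over its root. Log2 ratios of same-numbered libraries used log2 CPM with a prior count of 2. Alternatives were DESeq2 1.42.0, limma-voom 3.58.1, other filters and scalings, a block on the replicate number, and each library left out. Copies of member transcripts in the mm9 genome were sought with minimap2 2.31-r1302 (at least 200 matching bases at 95% identity). Promoter windows are RefSeq's on GRCm38.p6.

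The 35 genes, the roles and the other lists were chosen with earlier results of these data known. All members are accounted for. Values per library are given for the 14 called genes of smallest p, for Mki67, Top2a, Ccnb1, Cdk1, Plk1, Aurkb and Cdc20 whatever their p, and for the 3 members of smallest change. Those of Bub1b, Ttk and Incenp were added after their values were seen. From each other list, up to 4 genes of smallest p and every gene that fell are named. Some of these genes and markers are not reported here.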

Additional observations from a re-analysis of the deposited data

How the results depend on the processing

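The direction of the set did not change with the processing: 0 members were lower in every alternative, and the median log2 fold change stayed between 0.12 and 0.20. The number of higher members varied. It was 8 with upper quartile scaling (9.36% of all genes higher), 3 with library size only, 2 without the filter (all genes of at least 1 count), and 3 at an adjusted p under 0.01 (5.75% of all genes), against 15. Leaving out 1 library gave 5 to 13 higher members and medians of 0.15 to 0.20. The median was 0.12 with library size only. Other mitosis genes called numbered 4 with all genes of at least 1 count, 11 at an adjusted p under 0.01, and 11 to 21 with 1 library left out, against 28. S phase genes called numbered 8 with library size only, 3 with all genes of at least 1 count, 7 at an adjusted p under 0.01, and 5 to 14 with 1 library left out, against 16. Single genes reversed in Spag5 (-0.0089 with the upper quartile, -0.055 with library size only, -0.015 without Mock replicate 2 and up to 0.032 without other libraries) and in Kif20a (-0.041 with library size only, -0.090 without Mock replicate 2 and up to 0.14 without other libraries). The cause of these shifts was not tested. This includes the fit without the filter, where p-values were adjusted over 22164 genes.

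With the replicate number as a block (replicate block), 19 members, 35 other mitosis genes and 19 S phase genes were called, and 13.5% of all genes were higher against 10.9%. The members gained were Plk1, Cks2, Hmmr and Tpx2. The labels do not say that the number marks a pair. The correlation of same-numbered libraries' deviations was 0.029 over 13732 genes and 0.22 over the 8522 genes of at least 10 CPM. The older form of edgeR's quasi-likelihood test, added after the data were seen, gave 13 higher members.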
